A study of Mus musculus with 4 samples.

Results

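The regions described here are stretches of open chromatin that were called in both small-intestinal and both large-intestinal stem cell libraries but stood much higher in the 2 small-intestinal peak lists. The assay was ATAC-seq, whose Tn5 transposase cuts and tags DNA that is not packed into nucleosomes, in cells sorted from crypts of Lgr5-EGFP-IRES-creERT2 mice, which carry EGFP at the Lgr5 locus. All mice were 6 to 12 weeks old and untreated. The 2 small-intestinal libraries (SISC) came from the small intestine, sorted as Lgr5-EGFP+/CD24-, and the 2 large-intestinal libraries (LISC) from cecum to rectum, sorted as Lgr5-EGFP+ with no CD24 gate named. Each library was made from 50000 lysed cells with 10 PCR cycles. The reporter marks cells by Lgr5 transcription, so each gate holds the cells that carry EGFP and not a single clone. The CD24 gate was named for SISC alone, so gate and tissue cannot be told apart in any difference below.

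Peaks of the 4 lists that overlapped by 1 bp or more were merged into 119965 regions, of which 56633 on chromosomes 1 to 19 were called in all 4 libraries and are termed shared. Within each list every peak was given a percentile by its −log10 q, the peak caller's significance, with 100 for the strongest peak. A region took its highest peak in each list. Regions were chosen when the lower of the 2 SISC percentiles exceeded the higher of the 2 LISC percentiles by 20 points or more, a difference termed the gap, and 1921 regions met that rule. They made up 3.39% of the shared regions. The same rule turned around gave 2605 regions ranked higher in LISC, or 4.6%. The regions were thus selected on their −log10 q ranks, so their percentiles, q values and folds are a description, with no test. A percentile is a place in a library's own list and not a measure of accessibility, and the files hold no read counts, so the depth behind each value is unknown. With 2 libraries a group no two-sided exact permutation test over libraries could go below a p of 1 in 3, and whether replicates were separate animals is not stated, so the spread between them may be technical.

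Crypt base stem cells that express Lgr5, the receptor for R-spondins that strengthens Wnt signals, renew the epithelium along the whole intestine. Their daughters take on regional work: in the small intestine enterocytes carry a brush border of disaccharidases, peptidases and nutrient transporters, and their genes are known to be bound by GATA, HNF4, HNF1 and CDX factors. The large intestine mainly takes up water and salt and makes mucus. Open chromatin at promoters often carries CpG islands and is shared between tissues, while distal open regions, many of them enhancers, differ more from one cell type to another.

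The 4 lists held between 83443 and 93220 peaks. At their gene ends, open regions were called in all 4 libraries for all 5 epithelial markers examined (Epcam, Cdh1, Krt8, Krt19 and Vil1). Of 5 stem cell markers 5, 4, 4 and 5 were called in SISC replicates 1 and 2 and LISC replicates 1 and 2. Axin2, a Wnt target, was the marker missing in SISC replicate 2 and LISC replicate 1. Of the immune markers Ptprc, Cd3e and Csf1r were called in no library and Cd79a in all 4. Stromal markers were called for 3 of 4 genes in SISC replicate 1 and for 2 of 4 in the others. Y-chromosome peaks numbered 6 in SISC replicate 1 and 8 in LISC replicate 1, against 0 in both replicates 2. The part of these differences in the results was not tested.

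The promoters of several small-intestinal genes were themselves among the regions, and 6 are printed because their genes act in starch, sugar, peptide, amino acid, bile acid and sterol handling. They are the 250 bases before the transcription start from the RefSeq promoter table (build GRCm38.p6), written 5′ to 3′ on the gene's strand, and capitals mark matches on either strand to the motif letters listed further on. The first is Mgam, maltase-glucoamylase, at chr6:40628581-40628830 on the plus strand. Next stand Sis, sucrase-isomaltase, at chr3:72967864-72968113 on the minus strand, and Slc3a1, the heavy subunit of a cystine and dibasic amino acid transporter, at chr17:85028097-85028346 on the plus strand. Anpep, aminopeptidase N, lies at chr7:79848211-79848460 on the minus strand, and Slc10a2, the ileal bile acid transporter, at chr8:5105288-5105537 on the minus strand. Last is Abcg5 at chr17:84683012-84683261 on the minus strand, 1 subunit of a sterol exporter, whose partner Abcg8 starts within the same region on the other strand.
Mgam: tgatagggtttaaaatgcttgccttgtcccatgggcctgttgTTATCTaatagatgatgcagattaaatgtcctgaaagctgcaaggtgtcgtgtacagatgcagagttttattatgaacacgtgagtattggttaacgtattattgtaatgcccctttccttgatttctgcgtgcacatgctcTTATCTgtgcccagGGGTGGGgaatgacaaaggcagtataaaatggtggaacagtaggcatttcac
Sis: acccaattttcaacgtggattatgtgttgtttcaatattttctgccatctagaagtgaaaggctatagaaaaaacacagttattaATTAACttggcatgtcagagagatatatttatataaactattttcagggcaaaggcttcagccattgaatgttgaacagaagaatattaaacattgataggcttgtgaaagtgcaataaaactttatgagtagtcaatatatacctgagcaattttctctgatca
Slc3a1: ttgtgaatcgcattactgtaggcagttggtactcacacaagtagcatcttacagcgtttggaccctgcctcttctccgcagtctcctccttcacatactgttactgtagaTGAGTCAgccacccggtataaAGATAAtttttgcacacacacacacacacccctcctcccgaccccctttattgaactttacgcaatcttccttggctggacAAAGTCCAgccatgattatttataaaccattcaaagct
Anpep: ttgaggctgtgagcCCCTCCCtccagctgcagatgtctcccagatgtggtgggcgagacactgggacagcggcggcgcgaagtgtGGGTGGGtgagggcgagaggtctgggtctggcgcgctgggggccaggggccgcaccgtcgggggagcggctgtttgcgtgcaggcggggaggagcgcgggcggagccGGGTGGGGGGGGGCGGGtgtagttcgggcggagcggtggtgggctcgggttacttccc
Slc10a2: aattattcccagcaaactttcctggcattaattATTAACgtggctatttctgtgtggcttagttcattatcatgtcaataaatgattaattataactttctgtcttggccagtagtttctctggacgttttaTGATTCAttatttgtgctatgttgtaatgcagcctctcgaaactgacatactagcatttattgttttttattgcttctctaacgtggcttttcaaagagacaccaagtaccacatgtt
Abcg5: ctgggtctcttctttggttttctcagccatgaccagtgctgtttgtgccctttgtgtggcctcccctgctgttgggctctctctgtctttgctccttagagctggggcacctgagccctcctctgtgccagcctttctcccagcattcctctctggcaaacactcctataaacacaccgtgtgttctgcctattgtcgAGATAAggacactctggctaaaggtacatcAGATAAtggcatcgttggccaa

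In the Mgam window the 6 letters AGATAA or their complement, the core of GATA sites, lay 208 and 66 bases before the start, and the SISC peak summits stood between them, 127 bases before the start in both libraries. The LISC summits lay 143 and 61 bases before it. In Slc3a1 a GATA core at −119 and the HNF4-like letters AAAGTCCA at −38 were found, and the 4 summits ranged from 61 bases to 1 base before the start. Sis held the HNF1 letters GTTAAT at −165, and all 4 of its summits lay within 18 bp of each other. In Slc10a2 the HNF1 letters lay at −217 and the AP-1 letters TGANTCA at −118. Abcg5 held AGATAA at −52 and −22, with SISC summits at −37 in both libraries. Anpep held matches to GGGNGGG alone. A match is a description of the letters and shows no binding.

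Ranked within their lists, these promoters stood at least 20 points apart between the tissues, as the rule required. The Mgam promoter region had −log10 q values of 170 and 140 in SISC replicates 1 and 2 and of 8.41 and 11.1 in LISC replicates 1 and 2, which placed it at percentiles 84.4, 84.1, 11.4 and 24.6. It had a gap of 59.4 points, the largest among regions that cover a start of a listed gene. The Slc3a1 promoter had −log10 q values of 126 and 132 in SISC and of 24.8 and 17.1 in LISC. For Sis the values were 145 and 99.7 against 27.6 and 25.9. At both genes the SISC percentiles lay between 77.4 and 83.1. The LISC percentiles were lower, between 37.2 and 49.7, and so reached close to the middle of the list. The Abcg5 promoter, with percentiles of 82.8 and 82.8 in SISC, was still above the middle of the list in LISC replicate 2, at 57.3. Slc10a2 and Anpep stood lower than the other 4 in both SISC lists. Slc10a2 was at percentiles 47.9 and 58.2 in SISC and 12.1 and 4.99 in LISC, and Anpep at 52.6 and 53.8 in SISC and 20.5 and 15.9 in LISC.

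Over all 1921 regions, SISC placed them at the level of an average shared region and LISC placed them low. Their median percentile was 63.9 in SISC replicate 1 and 67.3 in SISC replicate 2, beside 64.0 and 68.2 over all shared regions. In LISC their medians were 25.3 and 25.4, beside 66.1 and 65.6 over all shared regions. The regions were thus of middle rank in SISC, and few came from the top of its lists. Above percentile 90 in both SISC libraries lay 20 of them, or 1.04%. A lower SISC percentile of 80 or more was held by 219 of the 1921 regions, beside 15157 of all 56633 shared regions. The median −log10 q was 62.6 and 64.5 in SISC and 14.3 and 11.4 in LISC. The authors' fold enrichment had medians of 7.97 and 7.08 in SISC and of 4.03 and 3.36 in LISC, values that depend on each library's own background.

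**Figure D1:**
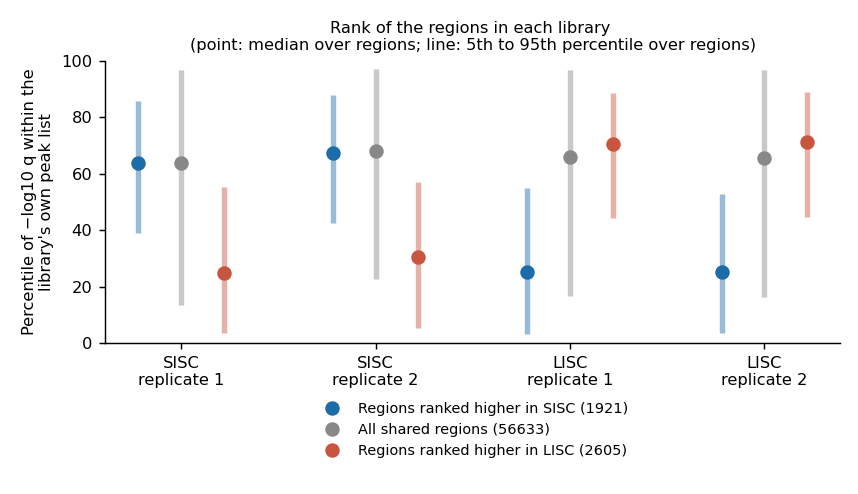
Percentile of −log10 q within each library's own list (vertical axis) for the 1921 regions ranked higher in SISC, all 56633 shared regions and the 2605 regions ranked higher in LISC; points are medians over regions and lines run from the 5th to the 95th percentile over regions. In the SISC libraries the regions ranked higher in SISC sit at 63.9 and 67.3, level with all shared regions, and in the LISC libraries at 25.3 and 25.4.

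The 2 SISC libraries placed the regions about as near each other as all shared regions, and the 2 LISC libraries placed them further apart. The median difference between the 2 SISC percentiles of a region was 5.12 points and between the 2 LISC percentiles 7.26 points, beside 5.18 and 4.91 over all shared regions. The same percentiles chose the regions, so nothing further is read from these differences. The gap had a median of 28.1 points and reached 77.5. It was under 30 points for 1118 regions (58.2%) and 40 points or more for 301 (15.7%). Only 35 regions had both SISC percentiles above 75 and both LISC percentiles below 25. Both SISC folds lay above both LISC folds in 97.8% of the regions, and in 26.1% of all shared regions; fold comes from the same contrast as the rank, so nothing is read from this. Leaving out a library loosens the rule and gave 4516 regions with SISC replicate 1 removed and 2447 with SISC replicate 2 removed. The numbers with LISC replicates 1 and 2 removed were 4766 and 4085.

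Peaks in these regions were narrow in LISC and of ordinary width in SISC. The bases covered by peaks had a median of 671 and 805 bp in the SISC libraries, beside 643 and 777 bp over all shared regions, and of 372 and 385 bp in the LISC libraries, beside 681 and 718 bp. Width was measured in the peaks that chose the regions, so nothing further is read from it. All regions had at least 1 peak in each list by construction, and 85.3% had exactly 1 peak in each, close to the 85.7% of all shared regions. The merged regions themselves, at a median of 843 bp, were about as wide as all shared regions, at 887 bp.

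Regions just inside the limit of 20 points were nearest to Bach2, Pgs1, Ppm1h, Pmepa1 and Crhr2, with gaps of 20.0 points at each. Those just outside included regions nearest to Ep300, Kpna2, Spire2 and Baat, with gaps from 19.96 to 19.99 points. At Bach2, a transcriptional repressor, the −log10 q values were 60.8 and 101 in SISC and 12.2 and 20.7 in LISC. At Ep300, a histone acetyltransferase, they were 78.8 and 88.4 in SISC and 35.0 and 23.1 in LISC. Since the gap is the lower SISC minus the higher LISC percentile, the groups could not overlap on either side of the limit.

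Of the 15 regions with the largest gaps, 10 lay inside a gene body. The top region, at chr3:22148239-22148908 inside Tbl1xr1, which encodes a subunit of nuclear corepressor complexes, had −log10 q values of 125 and 177 in SISC and of 4.51 and 4.08 in LISC. It moved from percentiles 79.1 and 88.0 to 1.29 and 1.67, among the weakest peaks of the LISC lists. Inside Helq, which encodes a DNA helicase, a region at chr5:100775519-100776406 had values of 205 and 197 against 4.51 and 7.46. A region at chr6:134687618-134688559 inside Borcs5, a subunit of a lysosome positioning complex, had values of 210 and 161 against 9.0 and 6.43.

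Of the other 12 regions with the largest gaps, 4 are described with their values, chosen after these were seen. Inside Mttp, which loads lipid onto apolipoprotein B during fat absorption, the region at chr3:138133336-138134311 had −log10 q values of 140 and 123 in SISC and 7.21 and 6.43 in LISC, and its 4 summits lay within 38 bp. A SISC-only region, called in both SISC libraries and neither LISC library, lay 0.221 kb away from it. At Cox7a2l, a mitochondrial respiratory factor, the values were 343 and 213 against 6.64 and 9.09. The region 4.92 kb from an end of Ccn2, a matricellular protein gene, lay inside no gene and had 153 and 156 against 8.39 and 7.46, and that inside Igf1r, the receptor for insulin-like growth factor, 70.9 and 79.1 against 4.01 and 3.24. The remaining 8 were nearest to Grk3, Igsf23, Gm46617, Aadacl4fm2, Shank2, Pcsk5, LOC115488350 (a region inside Thrb, a thyroid hormone receptor gene) and Pctp. Across the 15 the lowest SISC percentile was 67.0 and the highest LISC percentile 18.4.

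**Figure D2:**
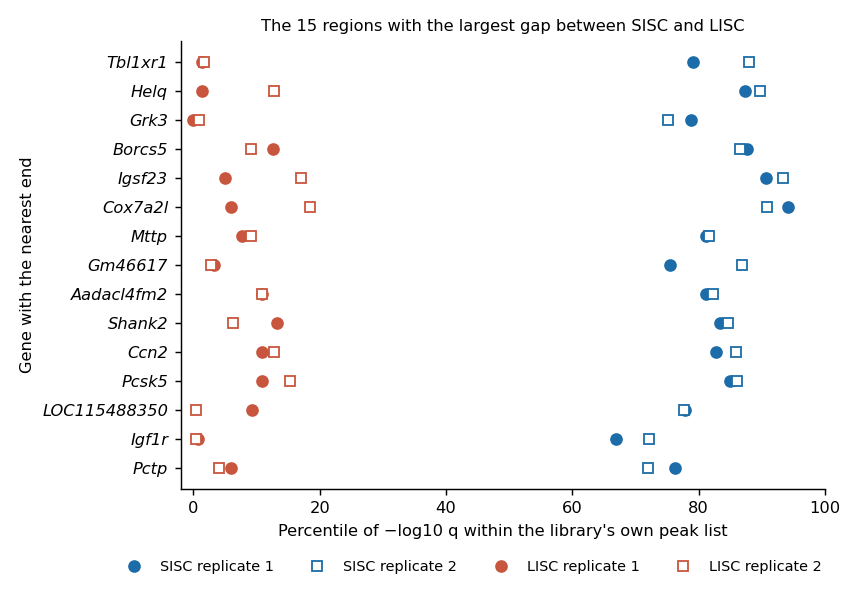
Percentile of −log10 q within the library's own list (horizontal axis) for the 15 regions with the largest gap, named by the gene with the nearest end; circles and squares are replicates 1 and 2, blue SISC and red LISC. All SISC points lie at 67.0 or above and all LISC points at 18.4 or below.

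Near gene ends, the largest gaps lay at Grk3, a kinase of G protein-coupled receptors, and at Igsf23. A gene end is either annotated end of a protein-coding gene, since the gene table gives no strand. The Grk3 region had −log10 q values of 123 and 89.9 in SISC and 2.64 and 3.65 in LISC, where it stood at percentiles 0.012 and 0.881, and it covered a gene end. Igsf23, an immunoglobulin superfamily gene, had values of 261 and 256 against 6.21 and 8.62 at a region 0.293 kb from its start. Among the 15 largest gaps near gene ends, those at Mgam, Casp14, Creg2, Cyyr1, Upk3b, Fstl1 and Cdh9 covered a start of that gene. At Casp14, a caspase gene, the values were 204 and 150 against 17.2 and 9.09. At Fstl1, a secreted follistatin-like protein gene, they were 76.5 and 88.5 against 7.21 and 9.65. The others lay at Treml2, Mxd1, Tmc3, Stard6, Olfr267 and Ly6g6f, with gaps from 49.4 to 62.0 points.

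Most of the regions lay away from gene ends. Within 1 kb of a gene end were 222 of 1921 regions, or 11.6% (95% exact interval 10.2 to 13.1), beside 24.3% of all shared regions and 5.91% of those ranked higher in LISC. Intervals of this kind cover counting over regions of these libraries only. The regions covered an annotated transcription start in 6.15% of cases on the chromosomes of the promoter table, beside 17.6% of all shared regions and 2.3% of those ranked higher in LISC. From the nearest gene end they lay a median of 13.3 kb away, beside 9.40 kb and 22.5 kb. Inside a gene body lay 50.7%, beside 45.2% and 54.0%.

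This lower share near gene ends held for the regions of high rank in SISC and not for those of low rank. Among regions whose lower SISC percentile was 80 or more, 10.0% lay near a gene end, beside 55.3% of all shared regions of that rank. Between 60 and 80 the shares were 9.51% and 17.1%. Between 40 and 60 they were 13.2% and 12.6%, and between 20 and 40 the order was turned around, with 17.5% and 9.91%. All shared regions were thus more often near gene ends the stronger they were, and the regions ranked higher in SISC were not.

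**Figure D3:**
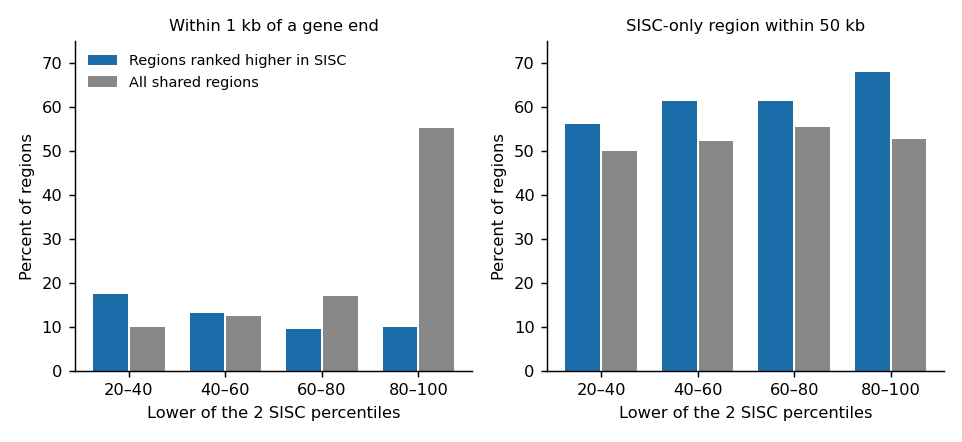
Percent of regions within 1 kb of a gene end (left) and with a SISC-only region within 50 kb (right), by the lower of the 2 SISC percentiles (horizontal axis), for regions ranked higher in SISC (blue) and all shared regions (grey). On the left the shares are 10.0% and 55.3% in the top bin and 17.5% and 9.91% in the bottom one. On the right the blue bar is the higher in all 4 bins. Ranks within a bin are not matched.

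The regions lay near sites of the same lean. A SISC-only region lay within 50 kb of 61.8% of them, beside 52.5% of all shared regions and 42.0% of those ranked higher in LISC. A LISC-only region lay within 50 kb of 44.7%, beside 52.8% and 68.3%. Within 10 kb the shares with a SISC-only region were 24.05%, 16.6% and 12.3%, and those with a LISC-only region 13.01%, 17.3% and 29.3%. The median distance to the nearest SISC-only region was 32.7 kb, beside 46.0 kb for all shared regions, and to the nearest LISC-only region 60.1 kb, beside 45.4 kb. The order held in each of the 4 bins of SISC rank: 56.2%, 61.4%, 61.5% and 68.0% of the regions had a SISC-only region within 50 kb, beside 49.9%, 52.2%, 55.4% and 52.7% of all shared regions. With regions chosen by rank of fold enrichment the differences at 50 kb were smaller. The shares were then 55.8% with a SISC-only and 49.8% with a LISC-only region, beside 52.5% and 52.8% of all shared regions. Group-only regions come from the same 4 lists that chose the regions, so these shares are a description.

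**Figure D4:**
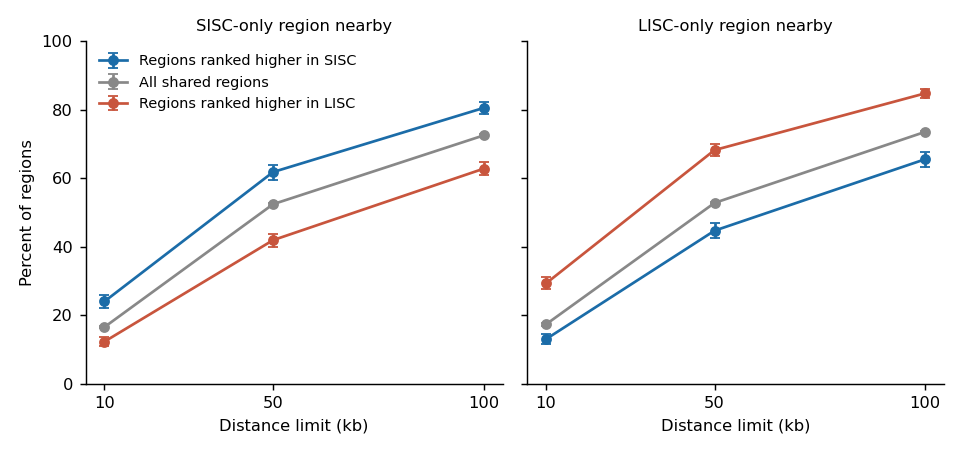
Percent of regions (vertical axis) with a SISC-only region (left) or a LISC-only region (right) within 10, 50 or 100 kb, for regions ranked higher in SISC (blue), all shared regions (grey) and regions ranked higher in LISC (red); bars are 95% exact intervals over regions. At 50 kb the blue points stand at 61.8% and 44.7%, and the grey at 52.5% and 52.8%.

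Regions of the same kind also lay near each other. Another region ranked higher in SISC was found within 50 kb of 24.2% of them, while 17.2% of all shared regions had such a neighbour. A region ranked higher in LISC lay within 50 kb of 16.2%, beside 20.7% of all shared regions. Joined at 50 kb, 1457 regions stood alone, 193 pairs formed, and 16 runs held 3 regions, 5 runs held 4 and 2 runs held 5. No run of 3 or more held a region ranked higher in LISC. Such regions made up 4.6% of all shared regions, and the runs were built from the chosen regions, so nothing is read from this.

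The longest runs lay at Gcnt2 and at Wnt9b and Wnt3. Gcnt2 encodes the enzyme that makes branched I antigen chains on glycoproteins, and 5 of its 8 shared regions met the rule, the most of any gene, over 88.9 kb with 6 SISC-only regions and 0 LISC-only regions given to the gene. The strongest of them, at chr13:40868547-40869571 in the gene body, had −log10 q values of 186 and 211 in SISC and of 13.6 and 12.6 in LISC. The region over the first start of Gcnt2, at chr13:40859418-40861186, was not among them, with percentiles of 89.5 and 93.6 in SISC and 84.2 and 84.4 in LISC. A further start inside the gene, in the region at chr13:40916555-40917928, was, with 79.0 and 77.2 against 44.0 and 23.7. So the first start was high in all 4 libraries, and the internal start stood lower in LISC than in SISC, more so in LISC replicate 2.

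Wnt9b and Wnt3 encode Wnt ligands, Wnt3 being a known niche signal from Paneth cells. Their run held 5 regions over 94.0 kb among 9 shared regions, a span that starts and ends at chosen regions. The region inside Wnt9b at chr11:103735034-103736011 had −log10 q values of 134 and 94.7 in SISC and 18.7 and 10.3 in LISC, and a region inside Wnt3 had 26.8 and 24.9 against 8.39 and 6.94. Runs of 4 lay at Zfand2a and Uncx, at Mylk3, at Zfyve27, Sfrp5 and Golga7b, at Slc25a37 and Entpd4, and at Cited2 and Txlnb, named here after their values were seen. Sfrp5 encodes a secreted Wnt antagonist and Cited2 a transcriptional coregulator.

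By nearest gene end within 100 kb, 1746 regions were given to 1533 genes, which was 10.2% of the 15039 genes with a shared region. Regions ranked higher in LISC fell to 1827 genes, or 12.1%, and 273 genes had both kinds. A single region was given to 1339 of the 1533 genes, 177 genes had 2, 16 had 3, and Gcnt2 had 5. Of the 1533 genes, 55.7% also had a SISC-only region, beside 30.9% of all genes with a shared region, and 42.9% had a LISC-only region, beside 31.2%. Both shares were thus higher. The genes were not matched for their number of shared regions, so nothing further is read from these shares. Neither kind was found at 439 of them (28.6%). The same share over all genes with a shared region was not computed, and regions called in other patterns of libraries were not counted. Of the 16 genes with 3, those with the largest gaps were Mgam, Lrch1, Zfand2a, Lpp, Ksr1, Wnt9b, Atp7b, Cxcl13 and Slc12a2. At Atp7b, a copper exporter, 3 of 4 shared regions met the rule and 5 SISC-only regions lay beside them. At Cxcl13, a B cell chemokine, all 3 lay upstream between 6.23 and 75.5 kb from the gene. Lrch1 also had 2 regions ranked higher in LISC and Lpp and Ksr1 1 each, so these genes did not lean one way.

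Genes of the brush border were the clearest group by count. Of 19 such genes with a shared region, 10 had a region ranked higher in SISC and 1, Slc3a1, had one ranked higher in LISC. Their shared regions met the rule in 15 of 106 cases (14.2%), beside 3.34% over all genes, and the opposite rule in 1 (0.943%), beside 4.27%. Mgam had 3 such regions among 13. The one over its start is described above, and one in the gene body at chr6:40750165-40751073 had −log10 q values of 140 and 96.5 in SISC and 19.5 and 12.6 in LISC. Its other shared regions did not share that pattern. At chr6:40660347-40661462, inside the gene, the percentiles were 83.4 and 78.1 in SISC and 92.6 and 93.7 in LISC. Ranked by fold enrichment in place of −log10 q, 8.49% of the shared regions of the list met the rule, beside 3.34% over all genes.

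The other brush border genes had 1 or 2 such regions. Slc2a5, the fructose transporter, had one 3.95 kb before its start with −log10 q values of 136 and 96.7 in SISC and of 8.65 and 13.5 in LISC. Mme, the peptidase neprilysin, had one 28.4 kb past its end with 160 and 132 against 6.64 and 20.7, and one over its start with 95.3 and 98.3 against 15.02 and 29.2. At the distal Mme region the 2 SISC libraries lay at percentiles 83.3 and 83.0, while the LISC libraries lay apart from each other at 5.99 and 43.1. Slc15a1, the peptide transporter, Enpep, aminopeptidase A, Treh, trehalase, and Slc6a19, a neutral amino acid transporter, had 1 each, with gaps from 25.4 to 35.2 points. None was found at 9 others with shared regions, among them Slc5a1, the sodium-glucose cotransporter, with 6 shared regions, and Dpp4, dipeptidyl peptidase 4, with 7.

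Transcription factor genes of the proximal intestine showed a like share. Of 10 genes, all with shared regions, 7 had a region ranked higher in SISC, and 10 of 66 shared regions (15.2%) met the rule, beside 1 (1.52%) for the opposite rule, at Gata6. Ranked by fold enrichment 7.58% met it, beside 3.34% over all genes. At Gata4, the factor of duodenal and jejunal identity, a region 15.3 kb from the gene at chr14:63287015-63288332 had −log10 q values of 208 and 190 in SISC and 13.6 and 6.94 in LISC, and 9 SISC-only and 0 LISC-only regions were given to the gene. The second Gata4 region, inside the gene, fell just within the limit, with a gap of 20.2 points. Nr1h4, the bile acid receptor FXR, had 2 inside its body, the stronger with 127 and 130 against 19.3 and 18.7. At Onecut2 the region over the gene end ranked high in SISC and near the middle of the list in LISC, with percentiles of 94.0 and 90.04 against 63.1 and 51.0. Gata6 had 1 of each kind among 15 shared regions, with 6 SISC-only and 11 LISC-only regions. Pdx1, Onecut3 and Osr2 had 1 each, and Gata5, Creb3l3 and Maf none.

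Hox genes, which set position along the gut, had none of the regions. Of 49 shared regions at Hox paralogs 1 to 8 and 32 at paralogs 9 to 13, 0 were ranked higher in SISC, which over all 81 allows a share of up to 3.70%. The share over all genes, 3.34%, lies within that limit, so the count of 0 does not set the Hox genes apart. Ranked higher in LISC were 12 and 4 (24.5% and 12.5%, beside 4.27% over all genes), 3 of them at Hoxb6. When fold enrichment set the ranks 7 Hox regions met the rule, with a gap of 10 points 4 did, and without a library between 1 and 4. Among 16 genes of large-intestinal epithelium with shared regions, 1, Slc9a3, had any, while 7 had regions ranked higher in LISC, among them Hoxb13, which is also in a Hox list. By region these were 2 and 10 of 85 (2.35% and 11.8%), beside 3.34% and 4.27% over all genes. Slc9a3, the sodium-proton exchanger of the apical membrane, had 2, both inside the gene, the stronger with −log10 q values of 70.1 and 113 in SISC and of 17.2 and 13.3 in LISC.

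**Figure D5:**
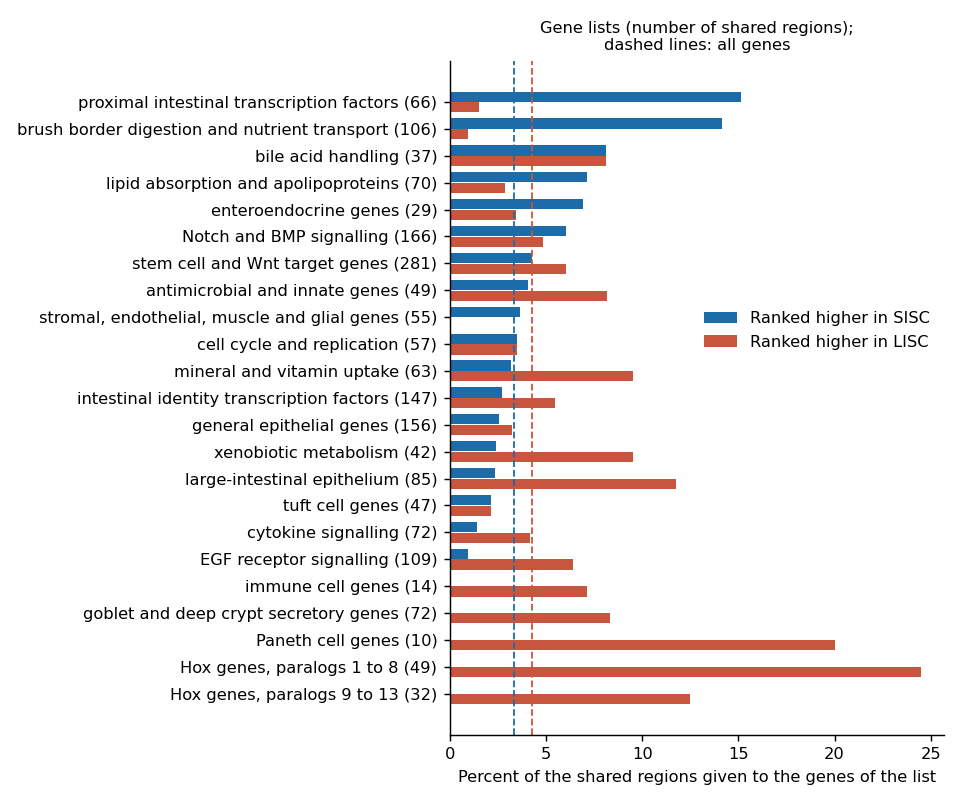
Percent of the shared regions given to the genes of each list (number of shared regions in parentheses) that were ranked higher in SISC (blue) or in LISC (red); dashed lines are the values over all genes, 3.34% and 4.27%. The blue bars reach 15.2% for proximal transcription factors and 14.2% for brush border genes, and are at 0 for both Hox lists.

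Genes of lipid and bile acid handling held single regions of large gap. Mttp had both of its shared regions among those ranked higher in SISC, the second with −log10 q values of 75.2 and 60.4 in SISC and 9.0 and 13.9 in LISC, and 6 SISC-only regions. Scarb1, a lipoprotein receptor, had 1 among 15. Of 18 lipid genes with shared regions 3 had such regions and 2 had regions ranked higher in LISC. That was 5 of 70 shared regions (7.14%), beside 3.34% over all genes, and 2 of 70 in the opposite direction (2.86%), beside 4.27%. Apob, the protein that Mttp loads, had 0 among 6 shared regions, though 5 SISC-only regions were given to it. Abcc2, an exporter of conjugated anions into bile and gut lumen, had its start in a region with values of 197 and 147 against 24.3 and 9.09. Slc51a, a subunit of the basolateral bile acid exporter, had 1 with a gap of 28.4 points. For bile acid genes 3 of 37 shared regions (8.11%) met the rule in each direction, beside 3.34% and 4.27% over all genes. Slc10a2, whose promoter is printed above, did not lean one way: among its 7 shared regions that promoter was the 1 ranked higher in SISC and 2 were ranked higher in LISC, and 1 SISC-only and 4 LISC-only regions were given to the gene.

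Stem cell and Wnt target genes had regions of both kinds. Of 25 genes 9 had a region ranked higher in SISC and 11 had one ranked higher in LISC, with 12 and 17 regions among 281. These shares of 4.27% and 6.05% stood beside 3.34% and 4.27% over all genes. Over the genes of all lists together they were 4.43% and 5.71%, so the stem cell list lay near the level of the listed genes. Lgr5, the sort gene, had 1 of 6 shared regions, inside the gene, with −log10 q values of 39.1 and 36.3 in SISC and 9.0 and 10.1 in LISC. Its 4 summits spanned 1076 bp, so the peaks compared there may not mark 1 site. Cd24a, the gene of the SISC gate, had 0 of 9 shared regions in either direction. Olfm4, a secreted glycoprotein known from small-intestinal crypt bases, had 1 of 2 shared regions and 14 SISC-only regions. Smoc2, a secreted stem cell marker, had one 26.5 kb outside the gene with 123 and 110 against 14.0 and 15.1. Msi1, an RNA-binding protein of stem cells, and Slc12a2, a sodium-potassium-chloride cotransporter, had 1 and 3. Tcf7l2, the nuclear effector of Wnt in crypts, had 2 ranked higher in SISC and 3 ranked higher in LISC among 31.

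Notch and BMP genes had 10 regions ranked higher in SISC and 8 in LISC among 166, or 6.02% and 4.82%, beside 3.34% and 4.27% over all genes. The Notch ligand gene Dll1 had 2, both beyond 40 kb from the gene, the stronger in gap with −log10 q values of 62.7 and 40.9 in SISC and 6.08 and 9.09 in LISC. The receptor Notch2 and the inhibitory Smad6 had 2 each and the target Hes1, Bmpr2, Smad7 and Id3 1 each, and Notch2, Smad6 and Hes1 also had 1 each ranked higher in LISC. Of intestinal identity factors Hnf4a, Prdm16, Isx and Foxa2 had 1 each of 16 genes with shared regions, and Prdm16, Isx and Foxa2 also had 2, 1 and 1 ranked higher in LISC. The Hnf4a region, inside the gene, had 74.8 and 28.6 against 8.70 and 7.91, so the 2 SISC libraries lay apart there, at percentiles 68.3 and 46.3.

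The remaining lists held 0 to 4 regions ranked higher in SISC each, and their counts are to be read against 3.34% and 4.27% of the shared regions over all genes. The counts of regions ranked higher in SISC and in LISC were 2 and 6 of 63 shared regions for mineral and vitamin uptake, 1 and 4 of 42 for xenobiotic metabolism, 2 and 4 of 49 for antimicrobial genes and 1 and 3 of 72 for cytokine signalling. They were 1 and 7 of 109 for EGF receptor signalling, 4 and 5 of 156 for general epithelial genes, 4 and 8 of 147 for intestinal identity factors and 2 and 2 of 57 for the cell cycle. In SISC the shares of these 8 lists ran from 0.917% to 4.08%, and those for mineral uptake (3.17%) and the cell cycle (3.51%) lay close to the share of all genes. Among cell types, Paneth genes had 0 and 2 of 10, goblet and deep crypt secretory genes 0 and 6 of 72, enteroendocrine genes 2 and 1 of 29 and tuft genes 1 and 1 of 47. Markers of other cells in the sort gave 0 and 1 of 14 for immune genes and 2 and 0 of 55 for stromal genes, at Pdgfrb and Myh11. Single genes with such a region were Cybrd1, a ferric reductase, with −log10 q values of 143 and 129 against 32.9 and 15.2, and Nos2, nitric oxide synthase, with 93.9 and 77.4 against 20.3 and 15.2. Tspan8, an epithelial tetraspanin gene, had 214 and 179 against 30.9 and 20.4, and a further region ranked higher in LISC. The Nr1i3 region covered the start of this xenobiotic receptor gene, with 196 and 143 against 32.01 and 5.45.

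Promoters among the regions held fewer CpG islands than shared promoters. Within 300 bp windows of the promoter table, 250 bases before to 50 after a start, 130 windows of 116 genes had their start in such a region, against 11802 in all shared regions and 60 in regions ranked higher in LISC. Island-like windows, with a CpG ratio above 0.6 and GC above 50%, made up 45.4% of them, 71.7% of shared promoters, 28.3% of those ranked higher in LISC and 46.2% of all 20062 promoters. The difference lay in the regions of high SISC rank: at a lower SISC percentile of 60 or more 36.4% of 66 windows were island-like, beside 74.7% of shared promoters of that rank, and between 20 and 60 the shares were 54.7% and 49.1%. Ranks within these bins were not matched.

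The letters of GATA, HNF4, HNF1, CDX, TCF/LEF and AP-1 sites were found more often than in shared promoters. The GATA core AGATAA, searched on both strands, was in 18 of 130 windows, or 13.8%, beside 5.59% of shared promoters, 20.0% of those ranked higher in LISC and 9.58% of all promoters. The difference from shared promoters lay at high SISC rank: at a lower SISC percentile of 60 or more 14 of 66 windows (21.2%) held it, beside 5.48% of shared promoters of that rank, and between 20 and 60 it was 4 of 64 (6.25%), beside 5.88%. Here too ranks within the bins were not matched. The HNF4-like AAAGTCCA was in 5 windows, or 3.85%, beside 1.03% of shared and 1.20% of all promoters, and in 0 of the 60 ranked higher in LISC, which allows a share of up to 5.00%. For the other letters the shares are given in the same order, of the regions ranked higher in SISC, of shared promoters, of those ranked higher in LISC and of all promoters. The HNF1 letters GTTAAT were in 10.0%, 4.01%, 8.33% and 6.23%, and the AP-1 letters TGANTCA in 9.23%, 4.69%, 16.7% and 7.06%. The CDX letters TTTATGG were in 3.85%, 1.60%, 0 of 60 windows and 2.3%, and the TCF/LEF letters CTTTGAT in 5.38%, 2.36%, 0 of 60 windows and 3.25%. The ETS letters CCGGAAG, common in island promoters, were in 3.85%, 17.9%, 3.33% and 11.9%. For the KLF/SP letters GGGNGGG the shares were 66.2%, 70.3%, 56.7% and 55.7%. For the STAT letters TTCNNNGAA they were 3.85%, 6.33%, 6.67% and 7.77%, and for the FOXA letters TGTTTAC 0.769%, 2.45%, 8.33% and 3.04%. The GATA and AP-1 letters were thus more frequent still in promoters ranked higher in LISC. The FOXA letters were also more frequent there than in shared promoters, but less frequent in those ranked higher in SISC. None of these motifs holds another within its letters, GGGNGGG matches can overlap each other, and windows of 1 gene may overlap. The counts are of windows and not of separate sites. For GATA they include overlapping windows of Adtrp, and the divergent windows of Abcg5 and Abcg8, which hold the same sites. Overlapping windows of Agxt2 were counted apart for HNF4, and those of Daam2 for CDX. No match says only that the letters are not in the window.

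Base composition moved with these shares. In windows that were not island-like, AGATAA was in 16 of 71 (22.5%), beside 11.4% of 3338 shared promoters and 27.9% of 43 ranked higher in LISC. AAAGTCCA was in 4 of 71 (5.63%), beside 2.28% of shared promoters. TTTATGG was in 5 of 71 (7.04%), beside 2.52%, and in 0 of the 43 ranked higher in LISC, which allows up to 6.98%. CCGGAAG was in 1 of 71 (1.41%), beside 10.3%. GTTAAT was in 12.7%, beside 7.64% of shared promoters and 11.6% of those ranked higher in LISC. For TGANTCA the shares were 12.7%, 8.57% and 20.9%. CTTTGAT was in 5.63%, beside 3.74% of shared promoters. Over all promoters that were not island-like, AGATAA was in 14.9%, AAAGTCCA in 1.75%, TTTATGG in 3.2% and CCGGAAG in 4.74%. AGATAA was thus less frequent in shared promoters of this kind than in all of them. These counts are small and include overlapping windows, as above, and the choice of regions was made on rank in the same libraries.

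A microRNA gene lay close to a region of large gap. The hairpin of Mir802 stands 716 bp from a region at chr16:93367485-93369003 with −log10 q values of 142 and 119 in SISC and of 6.07 and 11.9 in LISC, a gap of 54.5 points. Its 2 mature arms from RefSeq are shown with the seed, bases 2 to 8, in capitals, because that part pairs with targets; the arms have different seeds.
mmu-miR-802-5p: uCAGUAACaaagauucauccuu
mmu-miR-802-3p: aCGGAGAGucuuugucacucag

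Summits were less well matched in these regions than elsewhere. The 4 summits lay within 100 bp of each other in 1235 regions, or 64.3%, beside 77.7% of all shared regions and 63.6% of those ranked higher in LISC. The 2 SISC summits were within 100 bp in 91.5%, beside 90.4% of all shared regions, and the 2 LISC summits in 78.6%, beside 89.4%. The lower share thus lay in the LISC pair. Summits that matched within each group but not between them were found in 4.84%, beside 2.72%. With the lists cut to their 40000 strongest peaks the shares were 85.6% and 85.5%, so the difference from all shared regions was not seen there. Restricted to regions with matched summits, 62.3% had a SISC-only region within 50 kb. Of the shared brush border regions 17.3% then met the rule and of those of proximal factors 11.1%, beside 2.72% over all genes.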

How the data were processed

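The 4 ATAC-seq libraries, 2 SISC and 2 LISC, were analysed as 1 peak list each. Per the submitters' processing notes, the build was mm10 and the tools were MACS2 2.2.7.1, Bowtie2 2.3.4.1, cutadapt 3.4, bedtools and Picard. Not given in the sources used here: settings, Tn5 shift, treatment of duplicates and calling threshold. The authors deposited for each peak a fold enrichment (a ratio over the library's local background), a −log10 p and a −log10 q, and a score, which equals the −log10 q multiplied by 10 and truncated for at least 99.8% of peaks. All of these depend on the library's own depth, which is unknown, and were used only to rank peaks within a list.

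From them, peaks overlapping by 1 bp were merged (bedtools 2.31.1 gave the same 119965 regions), percentiles of −log10 q were computed with average ranks, and regions were selected as described. Gene ends and promoter sequences came from RefSeq tables of GRCm38.p6, which shares mm10 coordinates. The promoter table covered 79.8% of protein-coding genes, and promoters on chromosome 18 were not analysed here. Regions up to 1 kb from a gene end counted as near it, and each region went to the gene whose end was nearest, up to 100 kb. Of 392 listed genes, 385 were in the gene table on chromosomes 1 to 19. The members, the 23 gene lists and the 10 motifs were chosen with earlier results of these data known, so they are no independent support.

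Named were the 15 regions with the largest gap, the 15 with the largest gap within 1 kb of a gene end, 5 on each side of the limit, the 10 genes with the most regions, up to 4 genes per list with the most regions, Lgr5 and Cd24a; an item this rule selects is not reported here. Other genes were named after their values were seen: further list genes, genes with 0 regions, genes in runs, genes with a start in a region and microRNAs. No test was made, because the contrast chose the regions. The merging and selection were tested on simulated data. Alternatives changed the gap, the ranking column, the peak taken per region, the merging, the peaks kept, the distances and the libraries. The software was pandas 2.3.3, numpy 2.4.6 and scipy 1.17.1 under Python 3.11.15, with matplotlib 3.10.9 for figures. The X chromosome is treated apart, and 0 value columns of the lists belonged to samples outside the series.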

Additional observations from a re-analysis of the deposited data

Results flagged for a closer look

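The X chromosome was outside the rule, which was limited to chromosomes 1 to 19. Regions there met the same rank rule at a lower share. Of 1146 X-chromosome regions called in all 4 lists, 22 met it (1.92%), beside 3.39% of the autosomal shared regions. The opposite rule was met by 54 (4.71%), beside 4.6% of the autosomal shared regions. The largest gap there, 51.9 points, lay 40.2 kb from an end of Tmsb4x, which encodes an actin-binding peptide, with −log10 q values of 129 and 92.7 in SISC and of 13.6 and 4.98 in LISC. A region over an end of S100g, a calcium-binding protein of small-intestinal enterocytes, had 70.3 and 70.2 against 22.1 and 17.6. Among the others of the 22 were regions near Clcn5, Otc and Cldn2, with gaps of 47.2, 21.3 and 20.2 points. All of these are values of 2 libraries a group, with no test.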

How the results depend on the processing

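The values below are, in turn, of the 1921 regions, their 11.6% near a gene end, their 13.3 kb to it, their 61.8% and 44.7% with a SISC-only and a LISC-only region within 50 kb, their 64.3% with matching summits, and the 14.2% of brush border and 15.2% of proximal factor regions. Under every alternative run the regions kept their side of all shared regions in each share and distance, except in the share of matching summits among the 40000 strongest peaks. The cause of each shift was not tested, apart from a looser or stricter rule by construction. A gap of 10 points gave 5167 regions, 58.9% with a SISC-only region nearby, 71.0% with matching summits and 28.3% and 27.3% for the lists, beside 9.06% over all genes. A gap of 30 points gave 803 regions, 10.1% near a gene end, 14.8 kb to it, 41.3% with a LISC-only region, 59.2% with matching summits and 6.6% and 6.06% for the lists, beside 1.36%. Ranking by fold enrichment gave 9.86% near a gene end, 15.4 kb to it, 55.8% and 49.8% with a SISC-only and a LISC-only region nearby and 67.6% with matching summits, with list shares of 8.49% and 7.58%, beside 3.34%. Over all shared regions the SISC-only and LISC-only shares were then 52.5% and 52.8%, so both differences were smaller than in the main result. Summit windows of 100 bp to each side gave 9.93% near a gene end, 64.5% and 50.2% with a SISC-only and a LISC-only region nearby and 74.9% with matching summits. The 40000 strongest peaks gave 825 regions and, in the order above, 14.9%, 10.3 kb, 43.9%, 25.8% and 85.6%, and 6.67% for brush border regions, beside 2.95%; over all shared regions the SISC-only and LISC-only shares were then 35.2% and 31.7%. Matching summits were 61.8% with the widest peak of a region, 70.0% with percentiles over the shared regions, 68.0% with 1 peak in each list, and 36.6% and 81.7% at 50 and 200 bp. A gene end lay within 500 bp of 9.47% and within 2500 bp of 17.8%. Within 10 kb and 100 kb the SISC-only shares were 24.05% and 80.6% and the LISC-only shares 13.01% and 65.6%. Alternatives added after the data were seen: gene starts in place of gene ends gave 7.87% and 26.5 kb, and matched summits alone 1235 regions with 9.96% near a gene end and list shares of 17.3% and 11.1%, beside 2.72%. Leaving out a library in turn gave, in the same order, 2447 to 4766 regions, 10.6% to 13.1%, 11.8 to 15.2 kb, 67.2% to 81.9%, 49.8% to 58.6%, 69.4% to 77.3%, and list shares of 16.7% to 24.1% and 17.6% to 21.9%. The values over all shared regions moved with these, from 60.6% to 77.7% and from 57.9% to 67.5% for SISC-only and LISC-only regions nearby, and the share over all genes from 4.17% to 8.07%. Without LISC replicate 1 the brush border share was 20.4% beside 8.07%, a smaller multiple of the share of all genes than the 14.2% beside 3.34% of all 4 libraries.

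No paired analysis was possible because no result comes from a test, and the replicate numbers are not said to mark a shared animal or day. Depth is unknown: a list with more reads can rank the same site otherwise, regions are not independent, and a percentile gap between 2 tissues does not measure accessibility.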

Other observations

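Of the 16 runs of 3 regions, 5 are described here, chosen after their values were seen. Each run starts and ends at a chosen region, so the counts below are high by construction and nothing is read from them. The share over all shared regions was 3.39%. At Hlf, a bZIP transcription factor gene, all 3 shared regions of a 35.2 kb stretch met the rule, with gaps of up to 30.7 points. In all, 5 shared regions were given to Hlf, and 3 of them met the rule. At Heg1 and Muc13, a transmembrane mucin gene, 3 of 8 did, and at Krt12 and Krt23, keratin genes, 3 of 13. At H2-Aa, H2-Eb1 and Btnl2, genes of MHC class II and a butyrophilin-like protein, 3 of 9 shared regions did, with gaps of up to 28.5 points. At Nectin4, Usf1 and Tstd1 3 of 7 did, with a largest gap of 47.8 points.

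Further microRNA hairpins lay within 5 kb of such a region. Mir3103 lay inside one, with −log10 q values of 190 and 250 in SISC and of 28.5 and 13.9 in LISC. Mir141 and Mir200c, of the epithelial miR-200 family, lay 2911 and 2506 bp from 1 region with 18.9 and 25.6 against 5.76 and 5.86, a gap of 26.0 points. Mir449c and Mir449a lay 503 and 2054 bp from another, with 89.5 and 104 against 34.7 and 20.1. The share of shared regions that met the rule ranged from 2.88% on chromosome 7 to 4.24% on chromosome 16.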
